A study of Homo sapiens with 15 samples.

Results

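The replication-dependent histone genes are the genes of the H1, H2A, H2B, H3, and H4 histones whose RefSeq symbols are H1-1 to H1-5 or begin with H2AC, H2BC, H3C, or H4C. Their probes were chosen by symbol alone, through the RefSeq accession that the array files give for each probe, and the rule uses no measured value. The members were chosen with earlier results of these data known, so the choice of this set was not blind to the values. This gave 75 probes of 64 genes among the 34127 probes of the array other than controls. 73 of the 75 probes, of 63 genes, passed a filter on dim signal, which asked that every tumor of some construct be well above background, and were tested together with all 30585 probes that passed this filter. The remaining 2 probes, 1 of H1-5 and 1 of H2BC18, were dim and were not tested, which leaves H1-5 without a tested probe. The genes H2AC11, H2AC18, H3C14, and H4C14 had no probe matched by accession.

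HCT116, a human colon carcinoma line with its own RASSF1A and MOAP-1, was grown as xenografts in athymic nude mice, and RNA was taken from tumors at day 35. MOAP-1 is an adaptor protein of apoptosis and a partner of the tumor suppressor RASSF1A. Per the labels, the cells were transfected with wild type MOAP-1, with MOAP-1 in which a lysine was replaced by arginine (K264R or K278R), with HA-tagged wild type RASSF1A in pCDNA3 (pCDNA3-HA-RASSF1A), or with the empty pCDNA3 plasmid (Vector). There were 3 tumors for each of the 5 constructs, and each tumor was hybridized to 1 single-color Agilent array. All groups share the parental line, the host strain, and the time, and the series' design text calls the MOAP-1 constructs Myc-tagged. Transfection of HCT116 cells was transient by the study's methods, so a tumor came from a pool of cells and not from a clone, and the amount of construct left at the time of excision is not given by the arrays. The labels do not state which tumors shared a mouse.

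Histone proteins package DNA into nucleosomes. Each nucleosome core holds H2A, H2B, H3, and H4, and H1 binds the linker DNA between cores. The replication-dependent genes supply histones while DNA is copied in S phase. They lack introns, lie mostly in clusters, and many copies encode the same or nearly the same protein. Their mRNAs end in a stem-loop bound by SLBP instead of a poly(A) tail. Labeling of RNA for arrays of this kind commonly starts from an oligo(dT) primer, and some of these genes, among them H1-2, H2AC6, H2BC5, H2BC12, and H2BC21, are known to make polyadenylated transcripts as well. A level given here is therefore the signal of the labeled fraction, which may differ from the total amount of histone mRNA, and changes in either were not distinguished.

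By family, the members with probes were H1-1 to H1-5 of the linker histones, and 15 genes of H2A (H2AC1, H2AC4, H2AC6, H2AC7, H2AC8, H2AC12, H2AC13, H2AC14, H2AC15, H2AC16, H2AC17, H2AC19, H2AC20, H2AC21, and H2AC25). There were 18 genes of H2B (H2BC1, H2BC3, H2BC4, H2BC5, H2BC6, H2BC7, H2BC8, H2BC9, H2BC10, H2BC11, H2BC12, H2BC13, H2BC14, H2BC15, H2BC17, H2BC18, H2BC21, and H2BC26). H3 had 12 genes (H3C1, H3C2, H3C3, H3C4, H3C6, H3C7, H3C8, H3C10, H3C11, H3C12, H3C13, and H3C15), and H4 had 14 (H4C1, H4C2, H4C3, H4C4, H4C5, H4C6, H4C7, H4C8, H4C9, H4C11, H4C12, H4C13, H4C15, and H4C16). RefSeq places 53 of the 64 genes on chromosome 6, 10 on chromosome 1, and H4C16 on chromosome 12.

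The promoters of many members hold short motifs known from histone genes. RefSeq promoters of GRCh38.p14 were at hand for 59 members, and the 250 bases before each start were searched on both strands. TATAAA, the TATA box, was present in 39 of 59 member promoters (66.1%) and in 10.7% of all 35116 promoters. CCAAT was present in 50 of the 59 (84.7%) and in 32% of all promoters, and ATTTGCAT, the octamer bound by Oct-1, in 25 (42.4%) against 1.63%. The families differed in these letters. CCAAT was present in every H1, H2A, H2B, and H3 promoter searched, and in 3 of 12 H4 promoters. The octamer was present in 14 of 18 H2B and 10 of 14 H2A promoters, in 1 of 10 H3 promoters, and in 0 of 12 H4 and 0 of 5 H1 promoters. A match is a description of the sequence and not a measured binding site.

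Sequences are shown for H4C12, H4C11, and H3C15, the members with the 3 largest falls in MOAP-1 minus Vector, and for a pair of head-to-head stretches that hold H2BC15 and H2AC17, the genes with the smallest adjusted p in their families in that comparison. They run in the direction of transcription for single genes, with the letters of these 3 motifs on either strand in capitals. H4C12 (chr6:27831561-27831810, minus strand) and H4C11 (chr6:27823842-27824091, plus strand) are neighbors whose upstream bases match at 245 of 250 positions, while no other pair of H4 promoters matched at more than 154. H3C15 (chr1:149852358-149852607, plus strand) belongs to the chromosome 1 cluster. Many H2A and H2B genes lie head to head and share the stretch between their starts, which is shown in plus strand for H2AC15 and H2BC15 (chr6:27838376-27838568) and for H2AC17 and H2BC17 (chr6:27893186-27893424).
H4C12: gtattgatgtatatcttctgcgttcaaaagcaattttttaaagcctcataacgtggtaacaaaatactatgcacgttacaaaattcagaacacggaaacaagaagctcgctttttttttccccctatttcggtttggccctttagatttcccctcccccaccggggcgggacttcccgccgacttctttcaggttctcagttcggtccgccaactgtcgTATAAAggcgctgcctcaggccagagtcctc
H4C11: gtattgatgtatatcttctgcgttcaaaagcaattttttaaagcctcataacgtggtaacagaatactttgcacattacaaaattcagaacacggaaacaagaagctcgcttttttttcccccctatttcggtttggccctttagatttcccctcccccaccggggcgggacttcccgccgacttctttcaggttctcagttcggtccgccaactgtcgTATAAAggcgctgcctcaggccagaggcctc
H3C15: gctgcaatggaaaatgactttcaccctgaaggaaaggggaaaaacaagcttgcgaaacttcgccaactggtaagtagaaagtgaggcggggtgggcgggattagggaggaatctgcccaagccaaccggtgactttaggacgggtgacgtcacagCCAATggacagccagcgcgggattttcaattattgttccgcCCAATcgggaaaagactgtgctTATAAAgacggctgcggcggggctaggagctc
H2AC15 to H2BC15: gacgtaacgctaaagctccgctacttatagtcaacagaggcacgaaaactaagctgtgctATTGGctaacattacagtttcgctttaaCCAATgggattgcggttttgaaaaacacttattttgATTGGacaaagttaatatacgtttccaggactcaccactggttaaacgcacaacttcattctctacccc
H2AC17 to H2BC17: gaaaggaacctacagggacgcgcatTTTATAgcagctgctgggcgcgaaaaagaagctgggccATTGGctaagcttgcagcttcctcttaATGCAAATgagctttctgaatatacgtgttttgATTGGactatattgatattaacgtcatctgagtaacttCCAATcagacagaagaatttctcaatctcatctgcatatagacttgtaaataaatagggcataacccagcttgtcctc
The H4C11 and H4C12 stretches hold a TATA box and neither of the other motifs. The stretch between H2AC17 and H2BC17 holds all 3 motifs, and that between H2AC15 and H2BC15 holds CCAAT on both strands without the octamer or TATAAA.

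On all 15 arrays together, 85.1% to 93.1% of spots were well above background and the signal's 75th percentile ran from 496.3 to 1402, lowest in K278R tumor 2. Levels are log2 intensities relative to this percentile, so 1 unit is a factor of 2. The MOAP1 probe was 0.86 above Vector in the MOAP-1 tumors (adjusted p = 0.000842), 0.55 in K264R (adjusted p = 0.00939), and 0.74 in K278R (adjusted p = 0.00504). The RASSF1 probe was 0.12 below Vector in the RASSF1A tumors (adjusted p = 0.671), which does not bear out the label at the level of this probe. Whether either probe reads the transfected copy is not known. All 8 colon carcinoma marker genes were well above background in all tumors. The summed signal of 10 fibroblast markers, relative to the 75th percentile, was 2.06 to 7.83 in Vector, 8.11 or more in RASSF1A, 5.76 to 44.4 in MOAP-1, 4.71 to 19.5 in K264R, and 11 to 41.8 in K278R, with LUM not well above background in any group and POSTN in none but K278R. Its part in the histone results was not tested. The host is a mouse, and a human probe may read mouse RNA. Signals from bulk tumors do not tell fewer cells in S phase from less mRNA in each cell.

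Some histone probes were called lower than Vector in the tumors of each of the 3 MOAP-1 constructs. A probe was called when limma's adjusted p over all 30585 probes was below 0.05 and the change was at least 1.5-fold. In the MOAP-1 tumors 20 of the 73 histone probes fell (27.4%), whereas 6.69% of all probes fell. H3C11 and 1 probe of H2BC18 rose, against 9.92% of all probes that rose. In K264R 37 histone probes fell (50.7%), against 10.2% of all probes, and 2 rose, against 9.25%. In K278R 12 fell (16.4%), against 3.2% of all probes, and 2 rose, against 7.71%. None of the 73 was called in the RASSF1A tumors, where 0% of all probes were called by limma. These counts moved with the processing. For the normexp background model and the methods' own test, no share of all probes called is given. The shares above do not apply to their counts. With the normexp background model 4 members were called in MOAP-1, 3 of them lower, 10 in K264R, all lower, and 1 in K278R, lower, and the methods' t-test called 14 in MOAP-1, 33 in K264R, and 0 in K278R. In RASSF1A, at an unadjusted p below 0.05, 2 members differed, H2BC15 at 0.37 and H2BC21 at 0.55, against 12.1% of all probes. The probe of each family with the highest mean over all 15 arrays, H1-2, H2AC14, H2BC18, H3C12, and H4C3, was at 0.11, 0.28, -0.07, 0.10, and 0.11 in RASSF1A minus Vector.

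The shift was broad and moderate for most members. The median log2 change of the 73 probes was -0.43 in MOAP-1, -0.62 in K264R, and -0.27 in K278R, while the median of all tested probes was 0.02, -0.05, and 0.06. In RASSF1A the medians were 0.09 for the members and 0.02 for all probes. All 3 MOAP-1 tumors lay below all 3 Vector tumors for 43 histone probes (23.5% of all probes did so), all 3 K264R tumors for 51 (30% of all probes), and all 3 K278R tumors for 16 (13.6% of all probes). The 3 MOAP-1 constructs were compared with the same Vector tumors, so these comparisons are not independent of each other. Background correction changed the reference of these medians. With the normexp background model in place of the scanner software's correction, the median of all probes was itself -0.53, -0.31, and -0.46 in the 3 comparisons, and the median of the members, -0.45, -0.64, and -0.28, was then not below that of all probes in MOAP-1 or K278R. When 17 spots of extreme local background were left out of the model, all probes had medians of -0.15, -0.28, and -0.09 and the members -0.38, -0.60, and -0.25.

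The difference was visible tumor by tumor. Relative to the mean of the Vector tumors, the median histone probe was at 0.05, 0.09, and -0.13 in Vector tumors 1 to 3 and at -0.07, 0.19, and 0.14 in the RASSF1A tumors. It was at -0.57, -0.31, and -0.32 in the MOAP-1 tumors and at -0.69, -0.52, and -0.67 in the K264R tumors. In K278R tumors 1 and 3 it was at -0.40 and -0.53, and in K278R tumor 2 at 0.18, among the Vector and RASSF1A values. Without K278R tumor 2, 25 histone probes were called in K278R against Vector, 24 of them lower, with a median of -0.48. Without Vector tumor 2, 9 were called, 8 of them lower. The number of members called in K278R thus rested on single tumors. The share of all probes called without these tumors is not given here. Whether calls moved likewise over the whole array is thus not shown.

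**Figure D1:**
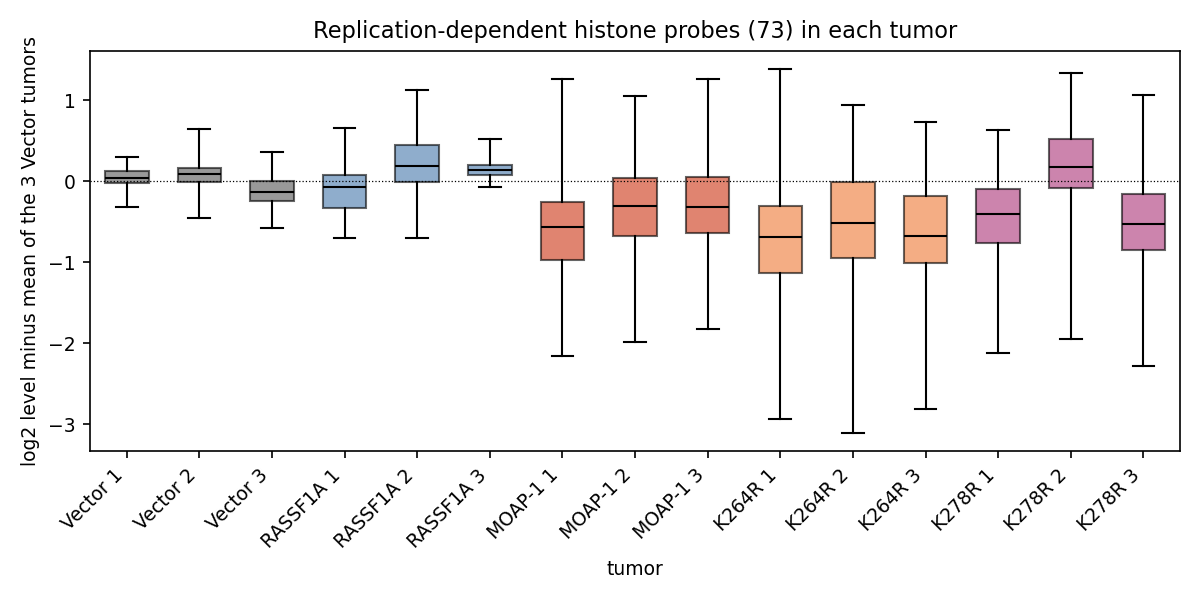
Box plots of the 73 histone probes in each of the 15 tumors, as log2 level minus the mean of the 3 Vector tumors on the y axis, with the median, quartiles, and full range. All MOAP-1 and K264R boxes have medians between -0.69 and -0.31, and K278R tumor 2, at 0.18, stands apart from K278R tumors 1 and 3.

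**Figure D2:**
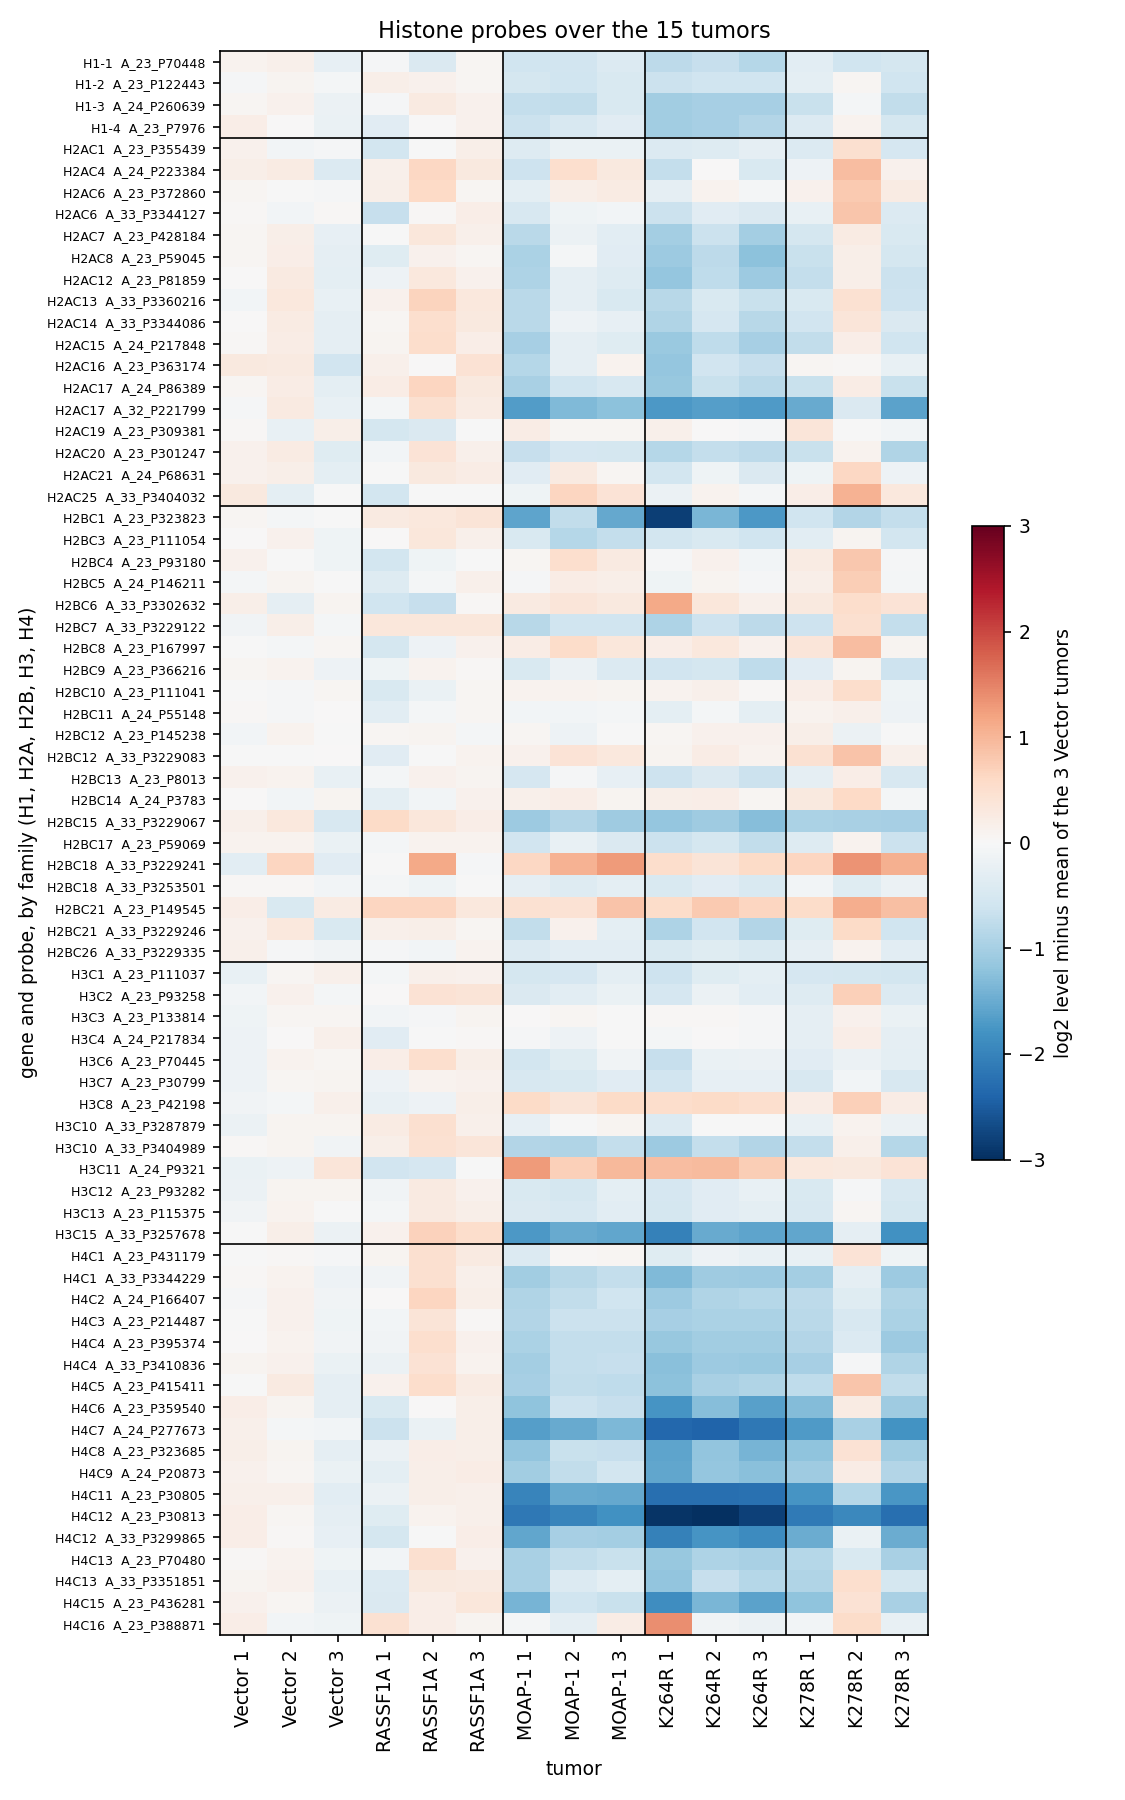
Heat map of the 73 histone probes (rows, by family) over the 15 tumors (columns), colored by log2 level minus the mean of the 3 Vector tumors on a scale from -3 to 3. The H4 rows hold the deepest falls, with H4C12 down to a group mean of -2.95 in K264R, and the H2B rows hold both directions.

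The families differed in how many members fell. Over all probes, 6.69% fell in MOAP-1, 10.2% in K264R, and 3.2% in K278R, and 9.92%, 9.25%, and 7.71% rose. Counts of 1 or 2 falls in a family were close to what these shares would give. H4, which has the most nearly uniform protein of the 4 core histones, had the highest share of falls among the core families, with 11 of 18 probes lower in MOAP-1, 16 of 18 in K264R, and 9 of 18 in K278R. Its median changes were -0.82, -1.15, and -0.69. Of the 17 H2A probes, 2 fell in MOAP-1, 9 in K264R, and 1 in K278R, with medians of -0.41, -0.76, and -0.21. Of the 21 H2B probes, 4 fell and 1 rose in MOAP-1, 6 fell and 1 rose in K264R, and 1 fell and 2 rose in K278R, and the medians were -0.07, -0.22, and 0. The H2B calls include the dim probes of H2BC1 and H2BC18 described below. With probes well above background on all 15 arrays only, 20 of 70 histone probes were called in MOAP-1, 37 in K264R, and 14 in K278R, with no share of all probes given for this filter. Of the 13 H3 probes, 2 fell and 1 rose in MOAP-1, 2 fell and 1 rose in K264R, and 1 fell in K278R, with medians of -0.34, -0.36, and -0.27. All 4 tested H1 probes fell in K264R, 1 in MOAP-1, and 0 in K278R. The difference between families was not tested.

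**Figure D3:**
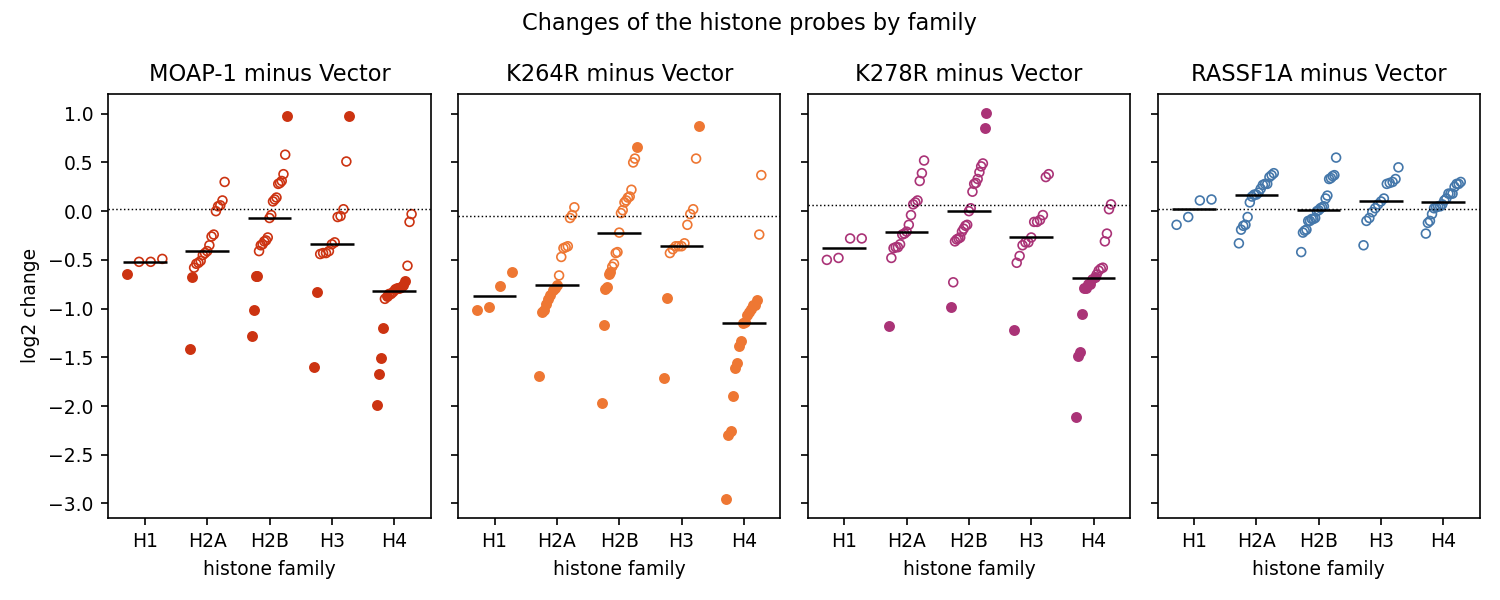
Log2 change of each histone probe against Vector (y axis) by family (x axis) in 4 panels, 1 per construct, with filled points for called probes, a black bar at the family median, and a dotted line at the median of all tested probes. The H4 bar sits at -0.82, -1.15, and -0.69 in MOAP-1, K264R, and K278R, and no point is filled in RASSF1A.

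H4C12 showed the largest fall of all members in each MOAP-1 construct. Its probe A_23_P30813 read 2.90, 2.77, and 2.44 in the Vector tumors and 2.35, 2.81, and 2.86 in the RASSF1A tumors. It read 0.55, 0.72, and 0.88 in MOAP-1, -0.23, -0.40, and -0.10 in K264R, and 0.59, 0.76, and 0.43 in K278R. No tumor of these 3 constructs reached the lowest Vector or RASSF1A tumor, and K278R tumor 2 lay with its group here. The log2 changes were -1.99 ± 0.16 (SE, n = 3, limma adjusted p = 0.000102), -2.95 ± 0.16 (adjusted p = 3.05e-06), and -2.11 ± 0.16 (adjusted p = 0.0002), which are 3.97-fold in MOAP-1 and 7.73-fold in K264R. The other H4C12 probe, A_33_P3299865, fell by less, with changes of -1.2, -1.90, and -1.06, and in it K278R tumor 2 read 1.36, within the Vector range of 1.33 to 1.78.

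The neighboring gene H4C11, whose upstream sequence is nearly the same, read 3.03, 3.03, and 2.54 in Vector. It read 0.89, 1.35, and 1.34 in MOAP-1, 0.60, 0.60, and 0.62 in K264R, and 1.1, 2.02, and 1.13 in K278R. The groups did not overlap, although K278R tumor 2 was nearest to Vector. The changes were -1.67 ± 0.23 (adjusted p = 0.00032), -2.26 ± 0.23 (adjusted p = 7.82e-05), and -1.45 ± 0.23 (adjusted p = 0.00246). H4C7, which encodes a divergent H4 protein, read -1.45, -1.66, and -1.67 in Vector, and -3.24, -3.11, and -2.95 in MOAP-1. It was lower still in K264R, at -3.94, -4.0, and -3.74, and read -3.30, -2.56, and -3.39 in K278R. Its changes were -1.51, -2.30, and -1.49, with limma adjusted p values of 0.000448, 6.27e-05, and 0.00214.

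Other H4 genes had smaller changes, and not all of them passed. H4C3 read 5.55, 5.70, and 5.43 in Vector, 4.68, 4.92, and 4.92 in MOAP-1, and 4.57, 4.62, and 4.60 in K264R. In K278R it read 4.74, 5.09, and 4.61, again without overlap with Vector. Its changes were -0.72, -0.96, and -0.75 (adjusted p = 0.00279, 0.00035, and 0.00521 in limma). H4C13 had changes of -0.79, -1.0, and -0.75 by its brighter probe, and -0.56, -0.91, and -0.31 by the dimmer one, of which only the K264R value passed both thresholds. H4C2, 1 probe of H4C4, and 1 probe of H4C1 were also called lower in all 3 constructs. The other H4C4 probe was called lower in MOAP-1 and K264R but not in K278R, at -0.65 (limma adjusted p = 0.0551). The other H4C1 probe, with changes of -0.11, -0.24, and 0.02, was called in none. H4C5, H4C6, H4C8, and H4C15 fell in K264R, with changes from -1.61 to -1.04, and did not pass in MOAP-1, where adjusted p lay between 0.0674 and 0.0749. H4C16, apart from the clusters on chromosome 12, was called in no construct and had changes of -0.03, 0.37, and 0.07.

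Among the H3 genes, H3C15 fell most. It read 2.0, 2.20, and 1.84 in Vector and 2.14, 2.71, and 2.54 in RASSF1A. It read 0.29, 0.49, and 0.45 in MOAP-1, -0.02, 0.51, and 0.42 in K264R, and 0.45, 1.75, and 0.19 in K278R. All of these lay below the lowest Vector tumor, with K278R tumor 2 just under it. The changes were -1.60 ± 0.31 (adjusted p = 0.00232), -1.71 ± 0.31 (adjusted p = 0.00115), and -1.22 ± 0.31 (adjusted p = 0.0171). H3C10 fell by its probe A_33_P3404989, by 0.83 in MOAP-1 and 0.89 in K264R on the log2 scale, while its other probe A_33_P3287879 changed by -0.05 and -0.14 and did not pass. The 2 probes of H3C10 thus disagreed.

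H3C11 moved the opposite way. It read -0.59, -0.54, and -0.03 in Vector and -0.95, -0.88, and -0.39 in RASSF1A, and it read 0.88, 0.32, and 0.58 in MOAP-1 and 0.55, 0.56, and 0.35 in K264R. The MOAP-1 and K264R tumors all lay above the Vector tumors, and the K278R tumors, at -0.06, -0.09, and 0.02, overlapped them. The rises were 0.98 ± 0.18 in MOAP-1 (adjusted p = 0.00183) and 0.87 ± 0.18 in K264R (adjusted p = 0.00283), and K278R was 0.35 above Vector (adjusted p = 0.191). H3C8 had the same direction, with 0.51 and 0.54, below the 1.5-fold threshold. The H3 genes H3C3 and H3C4 stayed between -0.11 and 0.02 in all 3 comparisons and did not pass.

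Among the H2A genes, H2AC17 fell in all 3 MOAP-1 constructs by its probe A_32_P221799. This probe read 0.95, 1.26, and 0.77 in Vector, -0.69, -0.32, and -0.24 in MOAP-1, and -0.72, -0.65, and -0.71 in K264R. In K278R it read -0.52, 0.57, and -0.61, and only tumor 2 came near the Vector values. The changes were -1.41 ± 0.26 (adjusted p = 0.00179), -1.69 ± 0.26 (adjusted p = 0.000432), and -1.18 ± 0.26 (adjusted p = 0.00931). The second H2AC17 probe fell by 0.68 in MOAP-1 and 0.86 in K264R and was 0.37 below Vector in K278R without passing. H2AC7, H2AC8, H2AC12, H2AC14, H2AC15, H2AC16, and H2AC20 fell in K264R only, by 0.76 to 1.03 on the log2 scale. H2AC16 was well above background on 1 Vector array, and its groups overlapped. Passing in 1 construct and not in the next is no test of a difference between them. H2AC1, H2AC4, H2AC6, H2AC13, H2AC19, H2AC21, and H2AC25 were called in none.

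Among the H2B genes, H2BC15 fell evenly. It read 1.83, 1.98, and 1.2 in Vector and 2.25, 2.0, and 1.87 in RASSF1A. It read 0.58, 0.79, and 0.61 in MOAP-1, 0.51, 0.60, and 0.40 in K264R, and 0.71, 0.69, and 0.68 in K278R, all below every Vector tumor. The changes were -1.01 ± 0.17 (adjusted p = 0.000922), -1.17 ± 0.17 (adjusted p = 0.000276), and -0.98 ± 0.17 (adjusted p = 0.00331). H2BC7 fell by 0.67 in MOAP-1 and 0.78 in K264R on the log2 scale. H2BC3 fell by 0.67 in MOAP-1, and in K264R it was 0.54 below Vector, under the 1.5-fold threshold. H2BC1, the testis-specific H2B, was too dim to stand well above background in the MOAP-1 and K264R tumors but did in 2 of 3 Vector tumors. Vector levels were at least 1.32-fold higher than MOAP-1 and at least 1.74-fold higher than K264R. The limma adjusted p values, 0.00631 and 0.000351, are of the measured levels and not of these bounds. The bound in MOAP-1 is under the 1.5-fold threshold, and the probe passed the filter on dim signal through the RASSF1A tumors alone.

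Several H2B genes had changes close to 0. H2BC14 read -0.27, -0.35, and -0.19 in Vector, -0.11, -0.08, and -0.19 in MOAP-1, and -0.10, -0.06, and -0.20 in K264R. These ranges overlap, and its changes of 0.14 and 0.15 did not pass (adjusted p = 0.478 and 0.455). H2BC4, H2BC5, H2BC8, H2BC10, H2BC11, and both H2BC12 probes likewise were called in no construct, with changes between -0.22 and 0.49. The highest of these, 0.49 for 1 H2BC12 probe in K278R, had an adjusted p of 0.0451 and was under the 1.5-fold threshold. The rises called among H2B were of H2BC18 and H2BC21. H2BC18 had a probe (A_33_P3229241) that was well above background in 1 Vector tumor and rose by 0.98 in MOAP-1 and 1.01 in K278R, with overlapping groups, while a brighter probe of the same gene was 0.31 and 0.21 lower without being called. H2BC21 had a probe that rose by 0.66 in K264R and 0.85 in K278R, and another that fell by 0.80 in K264R. The rises of both genes turned negative under the normexp background model.

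The linker histone H1-3 read 0.36, 0.42, and 0.11 in Vector, -0.41, -0.45, and -0.16 in MOAP-1, -0.74, -0.71, and -0.69 in K264R, and -0.38, 0.23, and -0.45 in K278R. MOAP-1 and K264R lay below Vector, and K278R tumor 2 overlapped it. H1-3 fell by 0.64 ± 0.16 in MOAP-1 (adjusted p = 0.0104) and by 1.01 ± 0.16 in K264R (adjusted p = 0.000532), and was 0.50 below Vector in K278R, under the 1.5-fold threshold. H1-4 read 2.23, 2.04, and 1.82 in Vector and 0.99, 1.04, and 1.14 in K264R, where it fell by 0.98. H1-1 and H1-2 fell in K264R by 0.77 and 0.62, and both were 0.52 below Vector in MOAP-1, just under the threshold of 1.5-fold. In all 3 of these genes the MOAP-1 tumors lay below the Vector tumors without overlap.

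**Figure D4:**
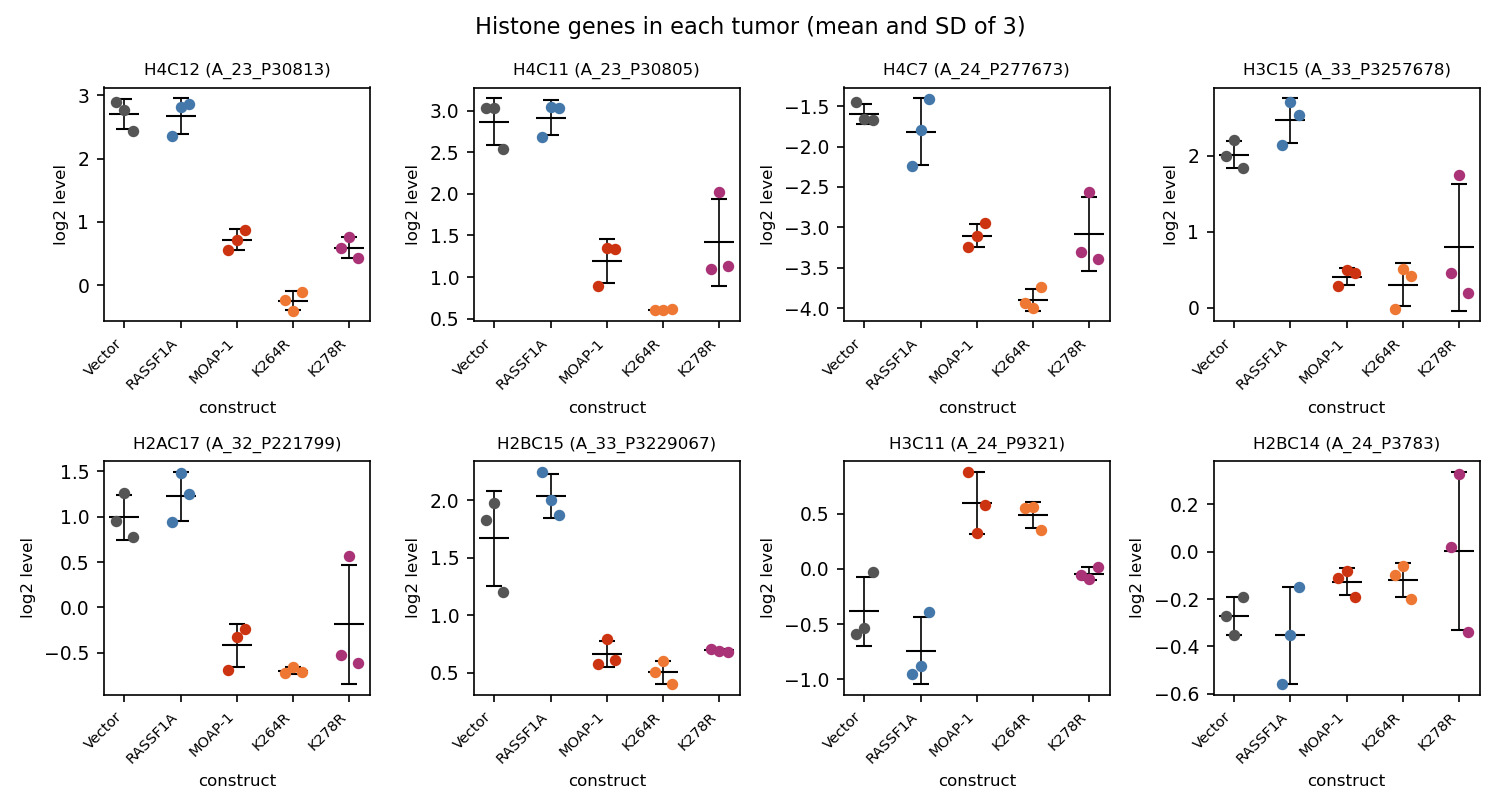
Log2 level (y axis) of 8 histone probes in each tumor by construct (x axis), with 1 point per tumor and the mean and SD of 3 in black. H4C12, H4C11, H4C7, H3C15, H2AC17, and H2BC15 are lower in the MOAP-1 and K264R tumors than in every Vector tumor, H3C11 is higher, and H2BC14 changes by 0.14 and 0.15.

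Head-to-head genes did not always move alike. For 10 pairs of H2A and H2B genes whose starts lie 194 to 246 bases apart, both with a tested probe, the brightest probe of each gene was set side by side. In K264R 6 of the 10 H2A genes and 5 of the 10 H2B genes fell, with median changes of -0.78 and -0.60, where 10.2% of all probes fell. H2AC7 and H2BC7 both fell, by 0.90 and 0.78, as did H2AC17 and H2BC17, by 0.86 and 0.64, and H2AC15 and H2BC15, by 0.95 and 1.17. H2AC20 and H2BC21 also both fell, by 0.79 and 0.80, although the other, dimmer H2BC21 probe rose by 0.66. In contrast, H2AC8 fell by 1.03 while H2BC8 was at 0.22 (adjusted p = 0.41), and H2AC14 fell by 0.76 while H2BC14 was at 0.15. In MOAP-1, 1 H2A gene and 3 H2B genes of the pairs fell, with medians of -0.44 and -0.32. There 6.69% of all probes fell, so the count of 1 H2A gene was near that share. The differences within pairs were not tested.

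Many member genes are near copies, and probes of different genes may read the same transcripts. Over the 15 tumors, the difference in log2 level between 2 probes had an SD below 0.1 for 24 of 2628 probe pairs, whereas the median SD was 0.43. Each of the 24 pairs joined probes of the same family, as did 583 of the 2628 pairs. The closest were H2BC10 with H2BC14 (SD 0.047), H4C4 with H4C13, and H2BC9 with H2BC17 (both 0.049). In all, 23 of the 73 probes were in such pairs, so a count of probes may exceed the number of separate transcripts measured, which was not tested. The probe sequences were not used here.

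Histone probes also fell in MOAP-1 against RASSF1A. In MOAP-1 minus RASSF1A 28 members fell, against 8.14% of all probes, and 2 rose, against 13%. The median was -0.53, against -0.01 for all probes. H3C15 fell most, by 2.05 (4.14-fold, adjusted p = 0.000285), then H4C12 by 1.96 (adjusted p = 3.96e-05) and H4C11 by 1.72 (adjusted p = 0.000121). All 3 MOAP-1 tumors lay below all 3 RASSF1A tumors for 43 members, against 26.5% of all probes. H2AC17 fell by 1.64, and H2BC1, whose probe passed the filter on dim signal through the RASSF1A tumors alone, was at least 1.65-fold higher in RASSF1A. The rises were H3C11, by 1.33 (adjusted p = 0.000151), and H2BC6, by 0.73 (adjusted p = 0.0279). H2BC6 read -0.48, -0.40, and -0.46 in MOAP-1 and -1.35, -1.45, and -0.71 in RASSF1A, without overlap. RASSF1A tumors 1 and 2 were scanned on another day than the rest, and with the scan day as a term 15 members were called, 14 of them lower. With normexp 13 were called, 12 of them lower. Shares of all probes called with scan day as a term or with normexp are not given here. No MOAP-1 tumor shared a slide with a RASSF1A tumor, so slide and construct cannot be told apart here either.

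No histone probe passed the test between MOAP-1 and its 2 lysine mutants. In MOAP-1 minus K264R no member was called (0.00327% of all probes were), and the median was 0.21 against 0.07 for all probes. At an unadjusted p below 0.05, 9 members differed, all higher in MOAP-1, against 10.9% of all probes. The clearest was H4C12, with a difference of 0.96 ± 0.16 and no overlap between the groups, whose adjusted p was 0.232. The same 5 probes, H1-2, H2AC14, H2BC18, H3C12, and H4C3, differed by 0.10, 0.35, 0.11, -0.07, and 0.24, with adjusted p values of 0.556 to 0.894 in limma. In MOAP-1 minus K278R no member was called (0% of all probes), the median was -0.13 against -0.05, and 2 members had an unadjusted p below 0.05, against 9.22% of all probes. These were H2BC3, at -0.41, and H3C11, at 0.63 (adjusted p = 0.448). On the slide that MOAP-1 tumor 2 shared with the K278R tumors the median difference was -0.05.

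Across the 3 comparisons with Vector, 38 histone probes fell in at least 1 construct and 12 in all 3. Over all probes, 6.69%, 10.2%, and 3.2% fell in MOAP-1, K264R, and K278R taken singly. Their overlap was not counted, so neither number has a background share. The 12 were probes of H2AC17, H2BC15, H3C15, H4C1, H4C2, H4C3, H4C4, H4C7, H4C11, and H4C13 and both probes of H4C12. Since the 3 comparisons share their Vector tumors, the number in common is no measure of agreement. All MOAP-1, K264R, and K278R tumors lay on other slides than the Vector tumors, so slide and construct cannot be told apart there. With slide as a random block, 27, 40, and 15 histone probes were called in MOAP-1, K264R, and K278R, and the share of all probes in that setting is not given. RASSF1A tumor 3, which lay on the slide of the Vector tumors, had a median of 0.14 over the members.

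Genes that serve histone mRNA held calls of rises. Of 27 tested probes for transcription and processing of histone mRNA, 8 rose in MOAP-1, against 9.92% of all probes, 11 in K264R, against 9.25%, and 6 in K278R, against 7.71%. None fell by limma, and 6.69%, 10.2%, and 3.2% of all probes fell, which for 27 probes is few. Their median changes were 0.30, 0.41, and 0.19. SLBP, which binds the stem-loop, read 1.58, 1.67, and 1.87 in Vector. It read 2.40, 2.38, and 2.31 in MOAP-1, 2.55, 2.47, and 2.38 in K264R, and 2.16, 1.60, and 2.31 in K278R. The MOAP-1 and K264R tumors all lay above Vector, and K278R tumor 2 lay with Vector. SLBP rose by 0.65 ± 0.15 in MOAP-1 (adjusted p = 0.00613) and by 0.76 ± 0.15 in K264R (adjusted p = 0.00202). NPAT, the S-phase coactivator of histone genes, rose by 1.07 in K264R (adjusted p = 0.00863) and was 0.41 above Vector in MOAP-1 (adjusted p = 0.27). ZNF473, which acts with the U7 snRNP in 3' end cleavage, rose by 1.75 in MOAP-1, and CDK2, the kinase that activates NPAT, by 1.02. LSM11, of the U7 snRNP, was called at 1.13, but its probe was well above background in 1 of 3 Vector tumors, so the size of its rise is not well measured. NCBP1, of the cap-binding complex, had the smallest adjusted p of the list in MOAP-1 (0.92, adjusted p = 0.000246) and in K278R (0.86, adjusted p = 0.00151). This probe too was well above background in 1 of 3 Vector tumors, and the brighter NCBP1 probe was at 0.30 in MOAP-1 and 0.31 in K278R and was not called. On the other side, CCNE1, the cyclin of CDK2, was 0.40 below Vector in MOAP-1 and 0.35 in K264R, under the 1.5-fold threshold.

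The calls among S-phase genes were rises. Of 40 probes, 9 rose in MOAP-1, 11 in K264R, and 4 in K278R, and 0 fell, against 9.92%, 9.25%, and 7.71% of all probes that rose, so that the K278R count lay near the background. The list had median changes of 0.25, 0.33, and 0.12. RRM2, of the enzyme that makes deoxynucleotides, read 0.14, -0.21, and 0.57 in Vector and 2.15, 2.07, and 2.01 in MOAP-1. It read 2.21, 2.22, and 1.98 in K264R and 1.30, 1.03, and 1.71 in K278R, all above every Vector tumor. It rose by 1.91, 1.97, and 1.18 (adjusted p = 0.000159, 7.21e-05, and 0.00298 in limma). PCNA, the sliding clamp of DNA polymerase, rose by 0.61 and 0.69 in MOAP-1 and K264R by its brighter probe. FEN1, CCNA2, and GINS2 rose by 0.99, 0.72, and 0.62 in MOAP-1. The most negative value in the MOAP-1 constructs was 1 probe of MCM7, a replicative helicase subunit, at -0.57 in MOAP-1, where the other MCM7 probe was at 0.02.

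Of 30 probes of histone chaperones, 3 rose in MOAP-1, 6 rose and 2 fell in K264R, and 1 rose in K278R. Over all probes in K264R, 9.25% rose and 10.2% fell, so the 2 falls were no more than that share would give. The counts of rises in MOAP-1 and K278R were no higher than the shares of 9.92% and 7.71% over all probes would give, to the nearest probe. SUPT16H, of the FACT complex, rose by 1.94, 1.97, and 1.22 (adjusted p = 0.000432, 0.000255, and 0.011 in limma). In K264R 1 probe of ANP32E fell by 0.66 and 1 probe of ATRX by 1.42, and the other tested probes of both genes were not called lower. Of 21 probes of replication-independent histones, 3 rose in MOAP-1, 2 rose and 1 fell in K264R, and 1 rose in K278R, near the background shares. H2AZ2 rose by 1.88 in MOAP-1 by 1 probe, and its other, brighter probe did not show this, with 3.19, 3.09, and 3.18 in MOAP-1 and 2.93, 3.42, and 3.38 in Vector. H3-3B, an H3.3 gene, rose by 0.61 in MOAP-1 and 0.67 in K264R. The fall in K264R was of 1 probe of H2AB2, by 0.61, and the other H2AB2 probe was not called lower. The 8 probes of members known to make polyadenylated transcripts had a median of 0.01 in MOAP-1, where 0 were called and 4 were below Vector. Their median was -0.05 in K264R, where 1 rose and 2 fell, and 0.18 in K278R, where 1 rose. Over all probes, 6.69%, 10.2%, and 3.2% fell in MOAP-1, K264R, and K278R. For 8 probes these shares give few calls, so the counts say little. In RASSF1A minus Vector no probe of these lists was called by limma, and the smallest adjusted p of the 4 lists other than the polyadenylated members was 0.341.

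**Figure D5:**
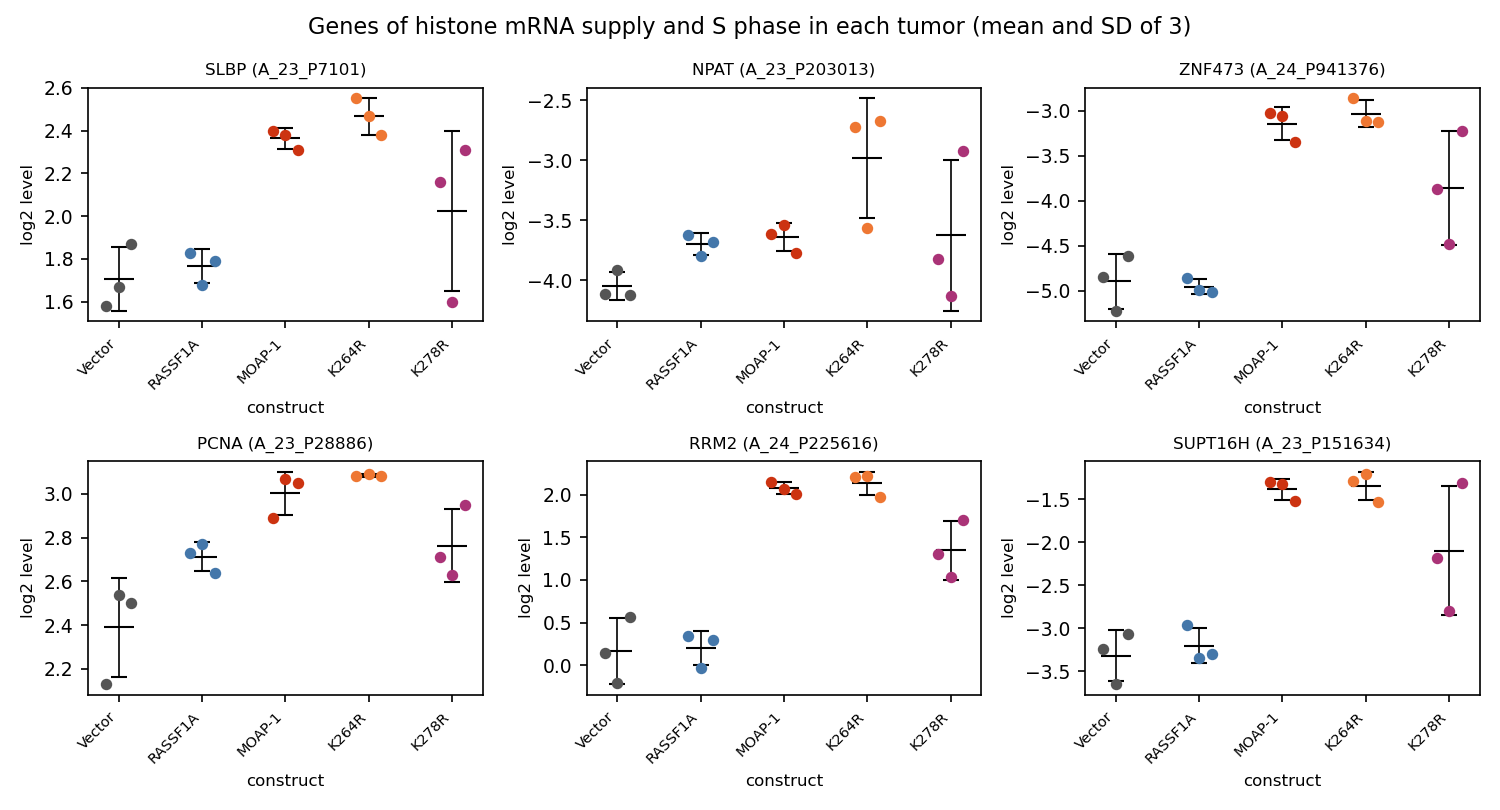
Log2 level (y axis) of SLBP, NPAT, ZNF473, PCNA, RRM2, and SUPT16H in each tumor by construct (x axis), with 1 point per tumor and the mean and SD of 3 in black. All MOAP-1 and K264R points of SLBP, ZNF473, PCNA, RRM2, and SUPT16H lie above the Vector points, and K278R tumor 2 is the lowest K278R point in each.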

How the data were processed

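Each of 15 tumors was hybridized to 1 single-color Agilent array. The authors deposited the scanner software's intensity values per spot and a log2 table of their own from GeneSpring. Feature Extraction is version 10.5.1.1 per the file headers and 9.1 per the labels. By correlation, 8 of the 15 columns of the log2 table hold their own array's values, 7 hold those of a different tumor with the same construct, and its column medians lay between -0.075 and 0.045. It served only as an alternative, and how it was centered is not given in the sources used here.

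The background-corrected and processed intensity was divided by each array's 75th percentile and log2 transformed, control and outlier spots were left out, and spots of 1 probe were averaged. Probes were kept when every tumor of some construct was well above background. One limma 3.58.1 model (lmFit and eBayes, R 4.3.3) took all 15 arrays, with Benjamini-Hochberg adjustment over all kept probes, and a call needed an adjusted p below 0.05 and a 1.5-fold change. The scripts were tested on simulated data. The limma p values and SEs rest on the spread among tumors within constructs, pooled over all 15 arrays, and not on the 3 tumors of a group alone. The number of arrays limits the precision.

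"At least" folds set the brighter group's mean against the dim group's mean of, per array, the higher of the probe's own level and the lowest level well above background. Alternatives were quantile normalization, normexp on the median signal (no mean signal column was used here) with an offset of 50, other filters, the authors' table, slide, scan day and replicate number as terms, the 6 arrays compared, 1 probe per gene, and the methods' t-test. Probes were named through their accession. Genes given values were, by rule, the called probes with the smallest adjusted p in each family in MOAP-1, those with the largest change in other contrasts, all other probes of those genes, and in families without a call the brightest probe. From the lists of other genes the probe with the smallest adjusted p was named by rule. FEN1, CCNA2, GINS2, LSM11, CDK2, MCM7, CCNE1, H2BC14, the genes of head-to-head pairs, and further members without a call were chosen after their values were seen. The members and lists were chosen with earlier results of these data known.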

Additional observations from a re-analysis of the deposited data

Results flagged for a closer look

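In MOAP-1 minus RASSF1A 30 histone probes were called (8.14% of all probes were called lower and 13% higher), while RASSF1A minus Vector had 0 by limma. The count was 15 with scan day as a term and 13 with normexp, for which shares of all probes are not given. No slide held tumors of both constructs, so slide and construct cannot be told apart.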

How the results depend on the processing

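The median of the histone probes stayed below 0 under all alternatives with all tumors, from -0.45 to -0.38 in MOAP-1, -0.64 to -0.57 in K264R, and -0.28 to -0.25 in K278R, all against Vector. Under the normexp background the median of all probes was also below 0. The members' median was then not below that of all probes in MOAP-1 or K278R. Under the normexp background the counts of called histone probes moved to 4 (1 higher) in MOAP-1, 10 in K264R, 1 in K278R, and 13 (1 higher) in MOAP-1 minus RASSF1A. H4C12 stayed called there, with -1.66, -2.54, and -1.80. The probe of H2BC18 turned to -1.56 in MOAP-1 and -1.46 in K278R, and to -0.31 and -0.21 when extreme spots were left out. That of H2BC21 turned to -0.66 in K264R and -1.29 in K278R, and to -0.46 and -0.13. The cause was not tested. The methods' t-test with Benjamini-Hochberg adjustment called 14 in MOAP-1 and 0 in K278R. With only the 6 arrays compared, K278R had 6, and with scan day as a term MOAP-1 minus RASSF1A had 15. Leaving out 1 tumor gave 17 to 24 in MOAP-1, 28 to 42 in K264R, 9 to 25 in K278R, and 22 to 31 in MOAP-1 minus RASSF1A, and 0 in the other comparisons. With the replicate number as a block, 26, 40, 15, and 34 were called in these 4 comparisons and 0 in the other 3. Whether replicate numbers pair the tumors was not settled. Of 30 same-numbered pairs, 15 had a correlation above 0.1, and the range was -0.255 to 0.361. All pairs of replicate number 2 were positive, from 0.0676 to 0.242, and 4 of 15 arrays correlated best with their own number. Shares of all probes called are not given for the alternatives in this section, so these counts have no background beside them. Dim probes limit H2BC1, H2BC18, H2AC16, LSM11, and NCBP1.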

Other observations

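The H1-5 probe, which was not tested, read -3.94 in K278R tumor 1 and between -9.15 and -7.02 in the other 14 tumors. The probe did not pass the filter on dim signal.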
